A study of Rattus norvegicus with 2 samples.

Results

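Protein phosphatases remove phosphate groups that protein kinases have added. The set described here holds the serine-threonine phosphatases named Ppp or Ppm1 and the tyrosine phosphatases named Ptpn or Ptpr. Members were all probe sets of the array with a single gene symbol that starts with Ppp and a digit, Ptpn, Ptpr or Ppm1. Ppp1r12a, Ppp1r12b, Ppp1r14a, Ppp1cb, Ptprc and Ptpn6 were left out. This gave 89 probe sets for 56 genes, out of 7006 probe sets with a single symbol for 4736 genes.

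RNA came from small mesenteric arteries of the first and second branching order, the muscular vessels that feed the intestine. The control rats had a sham operation, and the other rats had prehepatic portal hypertension made by partial ligation of the portal vein. No strain, age or time after the operation is given in the sources used here. Each group was 1 pool of total RNA from 20 rats, read on 1 Affymetrix RG_U34A array, and the pools are called the sham pool and the ligation (portal hypertensive) pool. There were no replicates, so no difference below has a test, an error or a p-value, and the spread between rats is unknown. In bulk RNA, fewer cells of a type and less RNA per cell cannot be told apart.

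Serine-threonine phosphatases work as a few catalytic subunits that many regulatory subunits steer to their substrates. Protein phosphatase 1 (PP1) reverses myosin light chain phosphorylation in smooth muscle through its targeting subunits. Protein phosphatase 2A (PP2A) is a complex of a scaffold, a catalytic and an exchangeable regulatory subunit. Calcineurin is the phosphatase switched on by calcium and calmodulin, and PPM phosphatases are single-chain enzymes that need magnesium or manganese. Many tyrosine phosphatases counter growth factor, cytokine and insulin signals. Those named Ptpn work inside the cell, and most of those named Ptpr span the membrane, many with an adhesion-like outer part.

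Values are signal intensities in arbitrary units, as deposited. A value is called above the floor when it exceeds 330.9, the 40th percentile of both arrays together. Of the 89 probe sets, 54 were above the floor in both pools, 6 in 1 pool only and 29 in neither. Over all probe sets with a single symbol, 4062 of 7006 were above it in both. A gene's value is the median, over its probe sets above the floor in at least 1 pool, of the log2 ratio of ligation over sham, with lower intensities set to the floor. Among the 56 genes, 43 had such a value and 13 did not. Intensities of different probe sets cannot be set against each other, because each probe set has its own binding strength. Where a pair of readings is given without naming the pools, the sham reading comes first.

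Most phosphatase genes differed little between the pools. The PP2A regulatory subunit genes Ppp2r2a and Ppp2r3a were lower after ligation on all of their probe sets, and the receptor phosphatase gene Ptprj was below the floor there. Ptprs, another receptor phosphatase gene, went opposite ways on its probe sets.

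At a fold of 1.5, 0 of 43 genes were higher and 2 were lower, Ppp2r2a and Ptprj. Over all 3351 genes with a value, 3.13% passed this fold on the higher side and 5.04% on the lower side, so the members' counts were near the background. The split depended on the scaling. With quantile normalization or with a loess trend removed, Ptpn11 was the 1 gene higher and Ptprj the 1 gene lower, while over all genes 151 were higher and 139 lower with the former and 136 and 145 with the latter, against 105 and 169 as deposited. Ratios lay below 0 for 25 of the 43 genes, against 53.2% of all genes. The median log2 ratio was -0.06 over the members and -0.02 over all genes. Ratios within 1.3-fold, a limit chosen after the values were seen, were found for 36 of the 43 genes (83.7%) and for 78.7% of all genes.

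**Figure D1:**
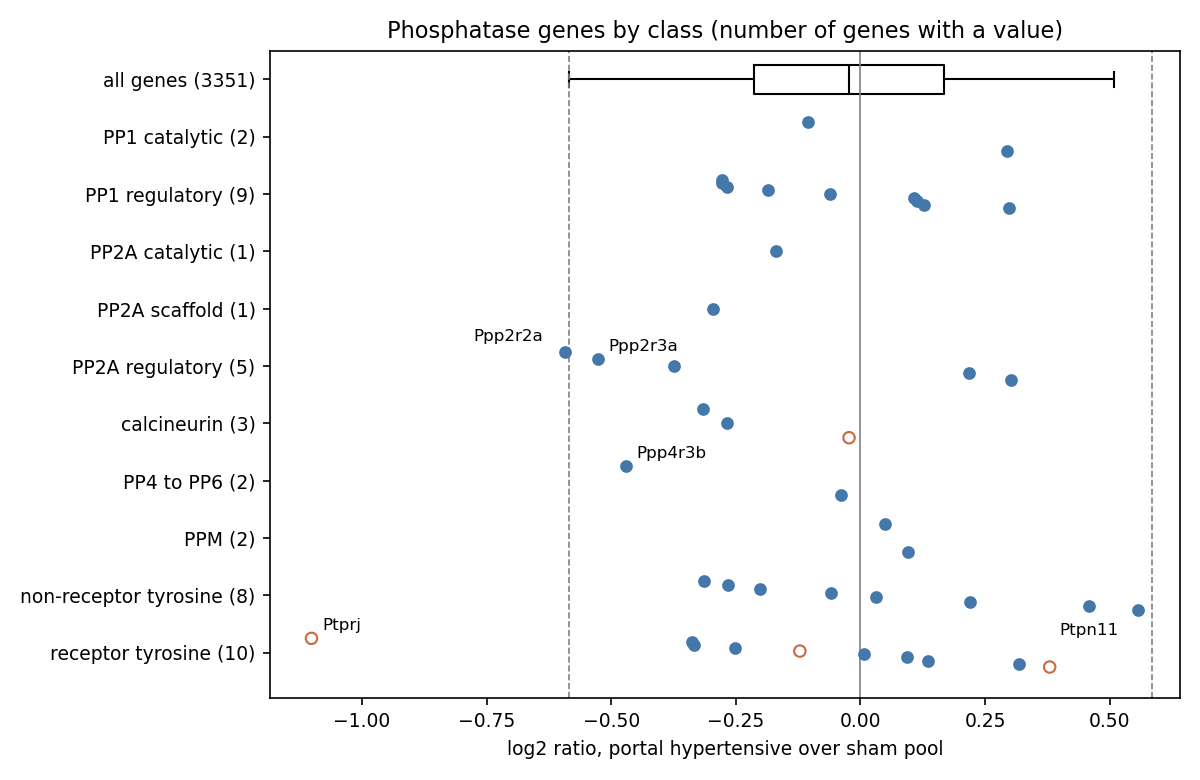
Log2 ratio of ligation over sham (horizontal axis) for each phosphatase gene with a value, by class (rows), with open circles for genes above the floor in 1 pool only. The box at the top spans the quartiles of all 3351 genes with the median line, its whiskers end at the 5th and 95th percentile, and dashed lines mark 1.5-fold; of the members only Ptprj and Ppp2r2a lie past them.

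For scale, probe sets of 1 gene can disagree. Across 789 genes with 2 or more probe sets above the floor in both pools, ratios scattered around the gene's mean with an SD of 0.30 on the log2 scale. When these genes were split by level into 3 equal bins of probe sets, the SD was 0.36 in the lowest bin, 0.29 in the middle and 0.23 in the highest. It measures disagreement between probe sets and leaves out differences between rats.

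Among PP2A subunits, Ppp2r2a was the only gene past 1.5-fold, and it passed as deposited but not with quantile normalization, the loess or its probe set of highest level. All 7 PP2A genes had a value, and 5 of them were below 0, against 53.2% of all genes, with a median log2 ratio of -0.30. A further 2 probe sets carry both the symbol of the PP2A alpha catalytic subunit gene, Ppp2ca, and Ppp2cal1, so they belong to no gene here. They read 10947 and 9484 after sham surgery and 10844 and 8760 after ligation. Their log2 ratios of -0.01 and -0.11 were close to equal in the pools and are not in the counts above. Ppp2r2a encodes a regulatory subunit of the B55 family, which directs PP2A to cell cycle and signalling substrates. Its 3 probe sets read 510.6, 1873 and 5256 after sham surgery and 338.7, 1080 and 3716 after ligation. All 3 were lower, with log2 ratios of -0.59, -0.79 and -0.50, and the first of them lay close to the floor after ligation.

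Ppp2r3a encodes a calcium-binding regulatory subunit. It read 2016 and 2175 after sham surgery on its 2 probe sets, and 1416 and 1495 after ligation. The log2 ratios of -0.51 and -0.54 were nearly the same. These probe sets come from the same source sequence, and so do 2 of the 3 for Ppp2r2a, so they are not independent readings.

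Ppp2r1a, the scaffold subunit gene, read 3704 and 4987 after sham surgery and 2851 and 4302 after ligation. Both probe sets were lower, by less than 1.5-fold, with log2 ratios of -0.38 and -0.21. Ppp2cb, the beta catalytic subunit gene, read 3495 after sham surgery and 3109 after ligation. Its log2 ratio of -0.17 is within the scatter between probe sets.

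Other PP2A regulatory subunits went both ways. Ppp2r5a, of the B56 family, read 11111 after sham surgery and 13694 after ligation, a log2 ratio of 0.30. Ppp2r2c, a B55 subunit best known from brain, read 779 and 600.8 in the same order, a log2 ratio of -0.37. Ppp2r2b, a further B55 subunit, read 385.4 and 448.3 on the probe set above the floor, a log2 ratio of 0.22, and stayed below the floor in both pools on the other. The ratio of Ppp2r2b is within the scatter between probe sets, and its sham reading lay close to the floor. Whether the B55 subunit genes share a direction can therefore not be told.

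**Figure D2:**
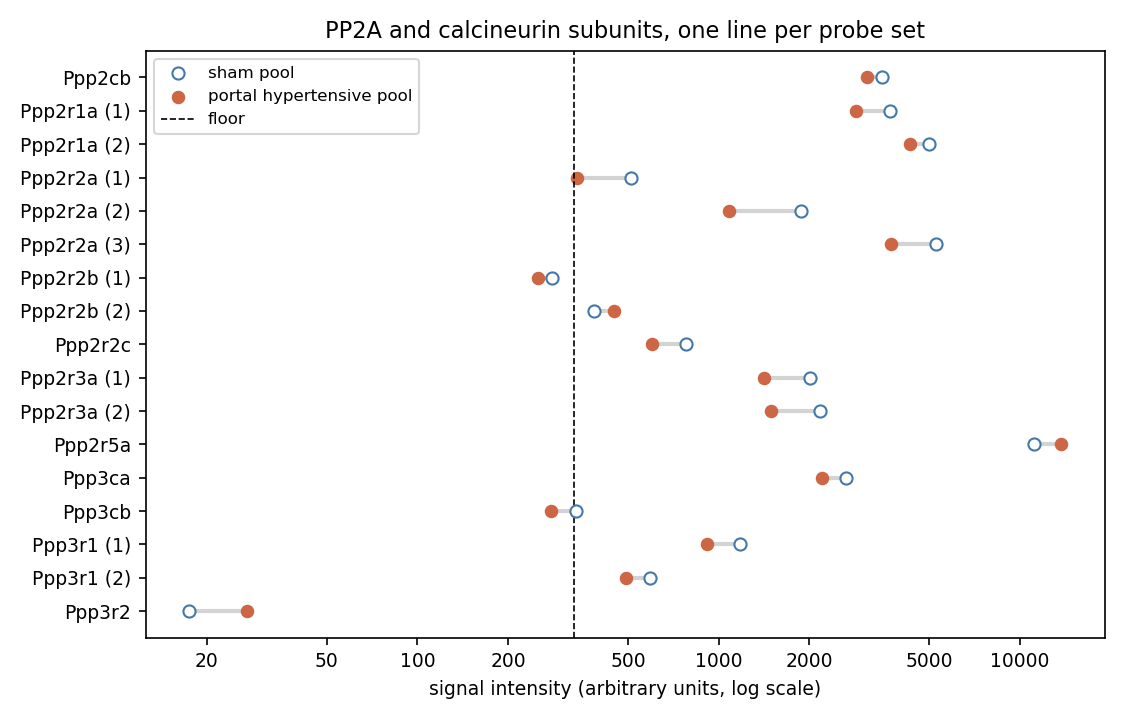
Signal intensity on a log axis (arbitrary units) for every probe set of the PP2A and calcineurin subunit genes, with open circles for the sham pool and filled circles for the ligation pool; the dashed line is the floor of 330.9. Numbers in brackets tell probe sets of a gene apart, and the filled circle lies left of the open one on all 3 probe sets of Ppp2r2a and both of Ppp2r3a, and right of it for Ppp2r5a.

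Calcineurin had 0 genes past 1.5-fold. All 3 genes with a value were below 0, against 53.2% of all genes, and for Ppp3cb this was a bound at the floor. Ppp3ca, the alpha catalytic subunit gene, read 2645 after sham surgery and 2197 after ligation, a log2 ratio of -0.27. Ppp3r1, the calcium-binding regulatory subunit gene, read 1175 and 592.1 after sham surgery and 914.5 and 490.9 after ligation. Both of its probe sets were lower, with log2 ratios of -0.36 and -0.27. Ppp3cb, the beta catalytic subunit gene, read 336.2 and 277, so only the sham value was above the floor. Ppp3r2, the testis form of the regulatory subunit, was below the floor in both pools. The 3 genes with a value had a median log2 ratio of -0.27, which was -0.23 with the loess trend removed. It was -0.23 also with quantile normalization, where Ppp3cb had no value.

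Regulatory sequence is shown for the genes of these complexes that were lower on more than 1 probe set and have an entry in the RefSeq promoter table (rat assembly GRCr8), and for Ptprj, the gene with the lowest ratio. Each line holds the 250 bases before the annotated start. Capitals mark matches on either strand to the TATA box TATAAA, the CCAAT box CCAAT and the GC box GGGCGG, and adjoining GC boxes overlap in Ppp3r1.
Ppp2r1a, chr1:69212948-69213197, + strand: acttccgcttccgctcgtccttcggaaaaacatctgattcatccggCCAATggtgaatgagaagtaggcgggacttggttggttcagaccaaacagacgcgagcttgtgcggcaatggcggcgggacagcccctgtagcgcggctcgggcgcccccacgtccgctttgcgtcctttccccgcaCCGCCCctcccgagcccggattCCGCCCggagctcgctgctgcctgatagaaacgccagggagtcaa
Ppp2r3a, chr8:110677483-110677732, - strand: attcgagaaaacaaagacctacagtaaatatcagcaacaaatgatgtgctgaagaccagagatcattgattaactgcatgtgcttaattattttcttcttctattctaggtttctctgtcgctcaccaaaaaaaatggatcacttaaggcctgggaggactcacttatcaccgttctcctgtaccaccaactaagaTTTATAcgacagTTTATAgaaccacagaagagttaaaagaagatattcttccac
Ppp3r1, chr14:95769596-95769845, + strand: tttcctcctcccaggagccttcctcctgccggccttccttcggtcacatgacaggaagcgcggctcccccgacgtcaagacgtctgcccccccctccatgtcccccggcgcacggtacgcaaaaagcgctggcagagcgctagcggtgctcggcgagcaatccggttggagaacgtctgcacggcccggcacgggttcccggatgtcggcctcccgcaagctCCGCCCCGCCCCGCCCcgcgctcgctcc
Ptprj, chr3:97017657-97017906, - strand: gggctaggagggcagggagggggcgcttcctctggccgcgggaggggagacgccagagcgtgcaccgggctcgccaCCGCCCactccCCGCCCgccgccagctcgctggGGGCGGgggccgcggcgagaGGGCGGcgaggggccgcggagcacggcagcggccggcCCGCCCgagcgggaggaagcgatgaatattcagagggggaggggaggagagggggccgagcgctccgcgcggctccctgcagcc

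The windows differ in composition. GC content was 63.2% for Ppp2r1a, 70.4% for Ppp3r1 and 79.2% for Ptprj, while that of Ppp2r3a was 37.2%, with 2 TATA boxes and neither a GC box nor a CCAAT box. The table holds 49 of the 56 genes, whose windows had a median GC content of 66%, against 52% over 27457 promoters. A GC box was found in 32 of the 49 windows and in 32.4% of all promoters, and the windows of the set also had the higher GC content. The CCAAT box was found in 15 of the 49 and in 34.3% of all. A TATA box (TATAAA) was found in 3 of the 49 and 13.1% of all, an E-box (CACGTG) in 1 of the 49 and 5.79% of all, and a cyclic AMP response element (TGACGTCA) in 3 of the 49 and 1.70% of all. The CArG box, known from smooth muscle genes, was in 0 of the 49 and 1.5% of all. A match describes letters only and does not show that a factor binds there.

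PP1 genes showed no difference past 1.5-fold. The catalytic subunit gene Ppp1ca read 6236 after sham surgery and 5796 after ligation, and Ppp1cc read 11398 and 13977. Their log2 ratios of -0.11 and 0.29 had opposite signs. Among the 11 regulatory subunit genes, 9 had a value, 4 above 0 and 5 below 0, with a median of -0.06.

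Inhibitors of PP1 were close to equal in the pools. Ppp1r1a, inhibitor-1, which blocks PP1 once protein kinase A has phosphorylated it, read 738.1 and 2013 after sham surgery and 883.6 and 2006 after ligation. Its log2 ratios were 0.26 and -0.01. Ppp1r2, inhibitor-2, read 2770 and 2656, a log2 ratio of -0.06.

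Scaffolding and targeting subunits of PP1 varied within 1.3-fold. Ppp1r9b, spinophilin, which anchors PP1 to actin, had a log2 ratio of 0.11 on its readable probe set, and Ppp1r15a, which guides PP1 to the initiation factor eIF2-alpha under stress, also 0.11. The nuclear targeting subunit gene Ppp1r10 had 0.30, the highest of this class. Ppp1r16b, a subunit known from endothelium, read 661 and 545.1, a log2 ratio of -0.28, and Ppp1r13l, an inhibitor of p53-family factors, had -0.18. Ppp1r36 read 3949 and 3256, a log2 ratio of -0.28, and Ppp1r21 read 2462 and 2047, a log2 ratio of -0.27. Ppp1r3b, the glycogen-targeting subunit gene best known from liver, and Ppp1r9a, neurabin of nerve cells, were below the floor in both pools.

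The remaining serine-threonine phosphatases included a regulatory subunit of PP4 that was lower. Ppp4r3b read 1538 after sham surgery and 1111 after ligation, and its only probe set gave a log2 ratio of -0.47. Ppp6c, the PP6 catalytic subunit gene, read 5114 and 4978, a log2 ratio of -0.04. Ppp5c was below the floor in both pools.

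Ppm1a and Ppm1b, which act on stress-activated kinases among other substrates, had probe sets of both signs. Ppm1a read 1166 and 441.4 after sham surgery and 1068 and 516.3 after ligation, with log2 ratios of -0.13 and 0.23. Ppm1b was lower on the probe set that read 947.8 and 517.3, with a log2 ratio of -0.87. On its other probe sets above the floor in both pools it read 705.5 and 844.1, and 5985 and 5870, with log2 ratios of 0.26 and -0.03. Its remaining probe set read 252.9 and 384.5, at least 1.16-fold higher. The gene value of 0.09 therefore joins readings that disagree.

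The 11 members with 2 or more probe sets above the floor in both pools show how far readings of a gene differ. In 5 of them all probe sets were below 0, in 1 all were above 0, and in 5 the signs differed, against 33.6%, 23.6% and 42.8% of the 789 such genes on the array. All probe sets were at least 1.3-fold lower in 2 of the 11, Ppp2r2a and Ppp2r3a, and in 1.52% of the 789 genes. That limit was chosen after the values were seen. The scatter between probe sets of a member had an SD of 0.47 on the log2 scale, against 0.30 for all genes. Without Ptprs, the member with the widest spread, it was 0.30. No gene was left out of the SD for all genes, so those 2 values are not like for like.

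**Figure D3:**
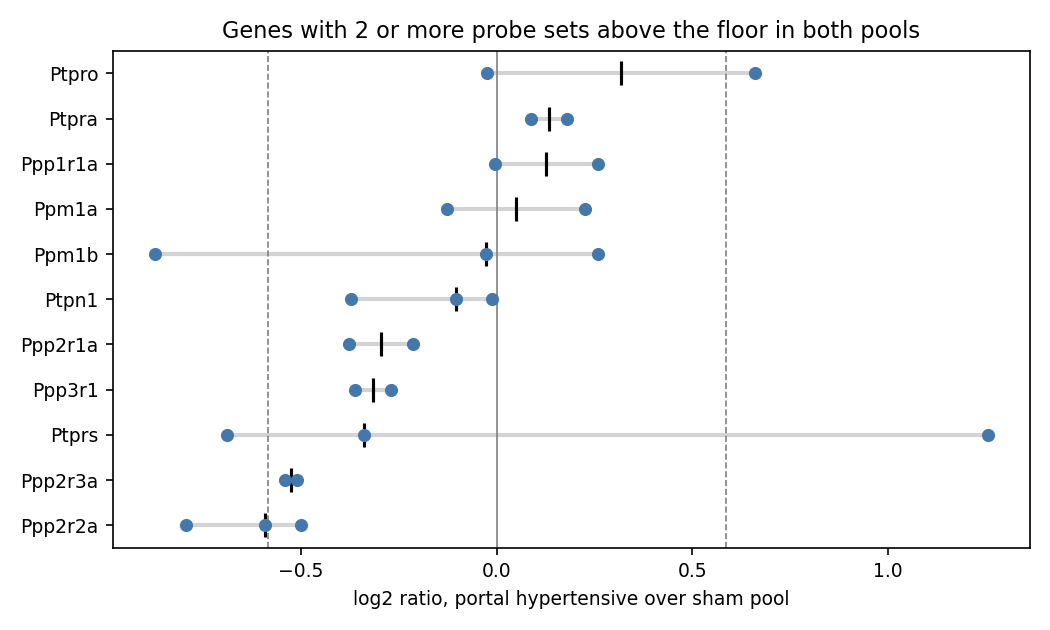
Log2 ratio of ligation over sham for each probe set (points) of the 11 phosphatase genes with 2 or more probe sets above the floor in both pools; black ticks mark the gene's median and dashed lines 1.5-fold. The points of Ppp2r2a and Ppp2r3a lie together below 0, whereas those of Ptprs run from -0.69 to 1.26.

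Receptor tyrosine phosphatases held the lowest member and the widest disagreement. Of 17 genes, 10 had a value, 5 above 0 and 5 below 0, with a median of -0.06. That median turned to 0.05 when the floor was raised to the 60th percentile, and to 0.01 over probe sets above the floor in both pools. Ptprj encodes CD148, a receptor phosphatase of endothelial and blood cells that restrains growth factor receptors. It read 710 after sham surgery and 226.9 after ligation, at least 2.15-fold lower, on its only probe set. It was number 18 from the lowest of the 3351 genes with a value. At a fold of 2, 1 member (Ptprj) was lower and 0 were higher, against 0.776% and 0.328% of all genes.

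Markers of endothelium and blood cells did not all go one way beside Ptprj. Of 6 endothelial genes with a probe set, 4 had a value and all 4 were below 0, with a median of -0.44 and a summed intensity of 11061 after sham surgery and 9224 after ligation, while Kdr and Vwf were below the floor in both. Icam2 (-1.13) and Nos3 (-0.78, with 1 probe set at 0.25) were past 1.5-fold, and Pecam1 (-0.10) and Thbd (-0.09) were not. Of 7 lymphocyte genes, 4 had a value and 3 of these were below 0, with a median of -0.54 and sums of 3708 and 2701. Cd3d and Cd79b were past 1.5-fold, at least 1.92-fold and 1.70-fold lower, both as bounds at the floor. Cd3g (-0.31) and Cd4 (0.16) were not, and Cd8a, Cd2 and Cd5 were below the floor in both. Macrophage markers had 4 of 5 genes above 0, with a median of 0.46. Their part in the Ptprj difference was not tested.

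Ptprs, a receptor for proteoglycans that is best known from nerve cells, gave readings that cannot be joined into 1 direction. On 1 probe set it read 926.8 after sham surgery and 2213 after ligation, a log2 ratio of 1.26. The partner probe set from the same source sequence read 549.4 and 340.9, a log2 ratio of -0.69. Another read 569.1 and 450, a log2 ratio of -0.34, and the fourth stayed below the floor. The difference of 1.94 between the partners was wider than in any of the other pairs of this kind among 470 on the array, whose median was 0.21. The gene value of -0.34 turned to 1.26 when the probe set of highest level, only plain probe sets or the floor at the 60th percentile was used.

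Ptpro, a receptor phosphatase first known from kidney podocytes, also split. It read 542.7 and 857.1 on 1 probe set, a log2 ratio of 0.66, and 1294 and 1273 on another, a log2 ratio of -0.02. Ptpra, which activates Src family kinases, was slightly higher on both of its probe sets, from 697.8 to 741.9 and from 911.4 to 1033, with log2 ratios of 0.09 and 0.18. Ptprf, the leukocyte common antigen-related receptor of cell contacts, read 1008 and 1013, and Ptprm, a homophilic adhesion receptor of endothelium, 1147 and 1225. Their log2 ratios of 0.01 and 0.09 show values close to equal.

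Ptprr, which inactivates MAP kinases, read 1628 after sham surgery and 1291 after ligation, a log2 ratio of -0.33. Ptprn, a protein of secretory granules, had a log2 ratio of -0.25. Ptpre read 243.8 and 430.5, at least 1.3-fold higher, and Ptpru read 360 and 131.2, at least 1.09-fold lower. Both are bounds, and with the floor at the 20th percentile, 106.4, their log2 ratios came to 0.82 and -1.46. The genes Ptprd, Ptprg, Ptprh, Ptprn2, Ptprq, Ptprv and Ptprz1 were below the floor in both pools.

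**Figure D4:**
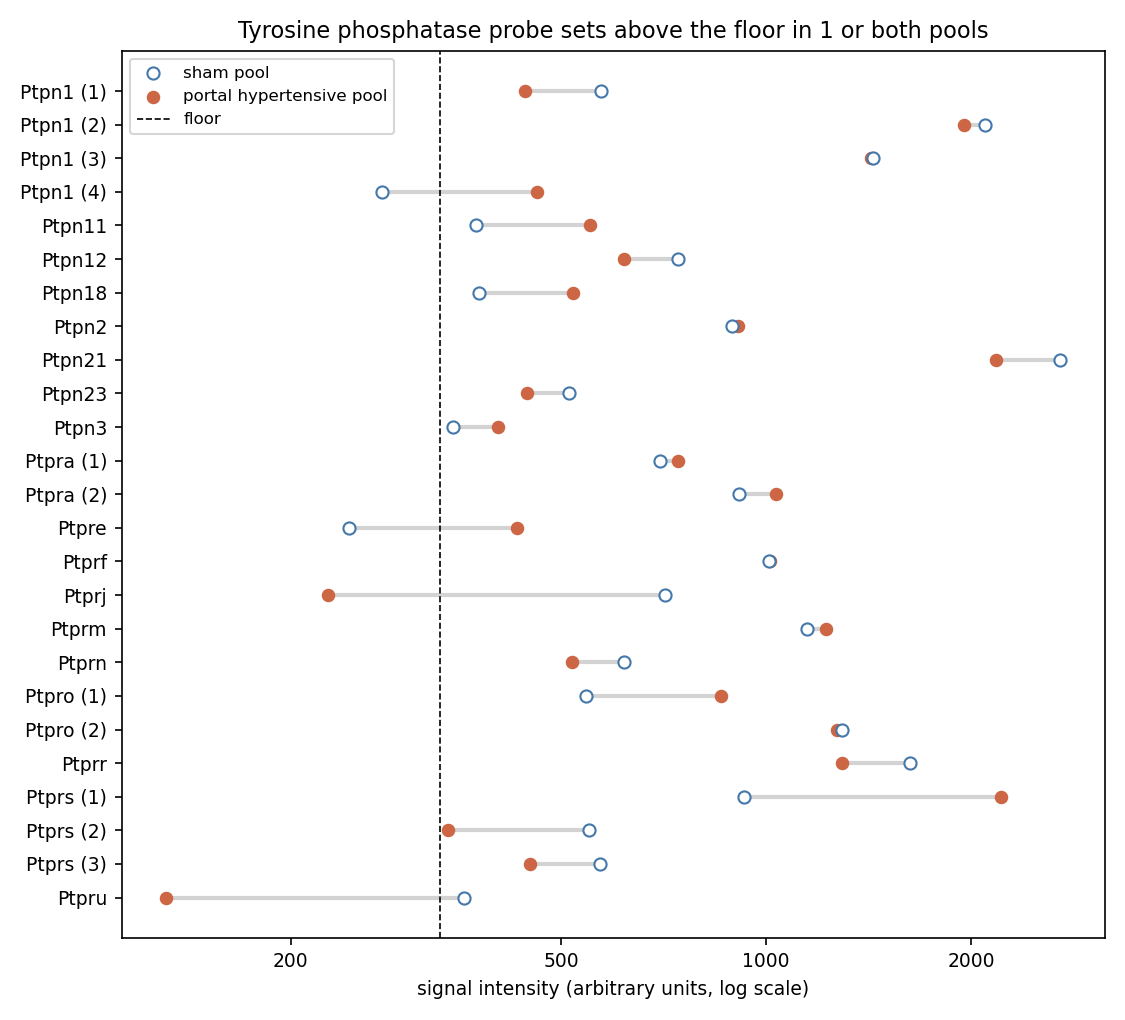
Signal intensity on a log axis (arbitrary units) for each tyrosine phosphatase probe set above the floor in at least 1 pool, with open circles for the sham pool, filled circles for the ligation pool and a dashed line at the floor of 330.9. Numbers in brackets tell probe sets of a gene apart; Ptprj runs from 710 to 226.9, and the first probe set of Ptprs runs the opposite way to its others.

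Non-receptor tyrosine phosphatases had no gene past 1.5-fold. Of 10 genes, 8 had a value, 4 above 0 and 4 below 0, with a median of -0.01 that turned to 0.05 with quantile normalization. Ptpn11, SHP2, which carries growth factor signals on to the Ras pathway, was the highest member of all, with readings of 374.5 after sham surgery and 551.2 after ligation and a log2 ratio of 0.56. This rested on 1 of its 5 probe sets, since the other 4 were below the floor in both pools. Ptpn18 was similar, with readings of 377.7 and 519.2 and a log2 ratio of 0.46. Both sham values lay close to the floor.

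Ptpn1, PTP1B, the phosphatase that switches off insulin and leptin receptors, read 571, 2100 and 1437 after sham surgery and 441.2, 1954 and 1424 after ligation. All 3 were slightly lower, with log2 ratios of -0.37, -0.10 and -0.01, while a further probe set read 272.4 and 460, at least 1.39-fold higher, and the last was below the floor in both pools. Ptpn2, its close relative that acts on JAK kinases, read 890.4 and 909.6 on the probe set above the floor. Ptpn21 read 2705 and 2175, a log2 ratio of -0.31.

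Other non-receptor members stayed within 1.3-fold. Ptpn12, which acts on focal adhesion proteins, had a log2 ratio of -0.27, Ptpn23, a protein of endosomal sorting, -0.20, and Ptpn3 0.22. Ptpn5, a phosphatase of the striatum, and Ptpn7, a phosphatase of blood cells, were below the floor in both pools.

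The genes left out of the set included the leukocyte phosphatases. Ptpn6, SHP1 of blood cells, read 479.6 and 992.7 on the probe set above the floor, a log2 ratio of 1.05, and Ptprc (CD45) had ratios of both signs on its 3 probe sets. Ppp1cb and Ppp1r12a, subunits of myosin phosphatase, had gene values of -0.10 and -0.32. Macrophage markers beside Ptpn6 had 4 of 5 genes with a value above 0, 1 of them, Fcgr2b, past 1.5-fold, and sums of 46883 and 57663 for the 6 genes with a probe set, of which Csf1r was below the floor in both pools. Their part was not tested.

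Genes that act with these phosphatases were read from lists of partners, ligands and genes of tyrosine kinase signalling. Of 13 receptors, kinases and adaptors of tyrosine kinase signalling with a value, 2 were at least 1.5-fold higher and 0 lower, against 3.13% and 5.04% of all genes. A ratio above 0 was found for 9 of them, against 46.8% of all genes, and the median was 0.09. Lyn, a Src family kinase of myeloid and mast cells, read 648.1 and 441.4 after sham surgery and 985.4 and 672.3 after ligation, with log2 ratios of 0.60 and 0.61. Egfr, the epidermal growth factor receptor gene, read 145.8 and 497, at least 1.5-fold higher. The insulin receptor gene Insr and its substrate gene Irs1 had log2 ratios of -0.15 and 0.43, the latter from a sham reading of 332.2, close to the floor, and a reading of 446.8 after ligation. The platelet-derived growth factor receptor gene Pdgfra, a fibroblast marker, had log2 ratios of 0.16 and 0.28 on its probe sets above the floor. Of 5 mast cell genes, 4 had a value and 3 of these were above 0, with sums of 10659 and 17805. Cma1 (1.2) and Cpa3 (0.82) were past 1.5-fold, Tpsab1 (0.10) and Tpsb2 (-0.37) were not, and Kit was below the floor in both pools. Their part was not tested.

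Of 6 ligands and partners of receptor phosphatases with a value, 0 were at least 1.5-fold higher and 2 lower, against 3.13% and 5.04% of all genes. Cntn2, a contactin of nerve cells, read 1634 and 829.3, a log2 ratio of -0.98, and Ncan, neurocan, a proteoglycan of nervous tissue, read 693.4 and 232.3 on 1 probe set, at least 2.10-fold lower, and was below the floor on the other. Ptn, the growth factor pleiotrophin, read 4434 and 4002, and Tnc, tenascin C, 788.7 and 1051. Nerve and Schwann cell markers had sums of 71366 and 71686, with 4 of 8 genes above 0 and 4 below 0, and Mbp, Nefl and Dbh were below the floor in both pools. Of these sums, 34475 and 38290 came from 1 probe set of Pmp22, and 20118 and 16002 from Npy. These went opposite ways, so the near-equal sums hide differences between the markers.

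Partners of the serine-threonine phosphatases had 0 genes past 1.5-fold. Cabin1, an inhibitor of calcineurin, read 3776 and 824.8 after sham surgery and 2765 and 808.4 after ligation, with log2 ratios of -0.45 and -0.03. Calm2, a calmodulin gene, read 38975 and 37930. Anp32a, which encodes an inhibitor of PP2A, read 897.6 and 699 on the probe set above the floor in both pools, a log2 ratio of -0.36, and 539.2 and 305.1 on another, at least 1.63-fold lower, with a gene value of -0.53. Igbp1, which binds the PP2A catalytic subunit, had 0.10. Strn, striatin, a regulatory subunit of PP2A outside the naming rule, had -0.21.

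The tissue label was checked against its markers. All 12 probe sets of the smooth muscle genes Acta2, Cnn1, Des, Kcnmb1, Myh11 and Tagln were above the floor in both pools, with sums of 477810 and 450166. Of these 6 genes, 5 were below 0, with a median of -0.19, and Tagln was above 0 (0.17). Kcnmb1 (-0.68, with probe sets at -1.04 and -0.33) was the 1 gene past 1.5-fold. Of 6 adipocyte markers with a value, 5 were above 0 and 1, Scd, was past 1.5-fold, while Lep was below 0. Their sums over the 7 genes with a probe set were 100722 and 139206, of which 11225 and 29482 came from 1 probe set of Scd, and Plin1 was below the floor in both pools. Pancreas markers had sums of 10057 and 8571, with Ins1 and Ins2 above the floor on 1 probe set each and the other 5 genes below it in both pools. No value was above the floor for the mesothelium markers Wt1 and Krt19. The part of these tissues in the differences above was not tested.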

How the data were processed

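RNA of each group was 1 pool of 20 rats, per the labels. The deposited values are 1 signal intensity for each probe set on each array. How the authors computed and scaled them is not given in the sources used here. Without the lowest and highest 2%, the columns averaged 2504.33 and 2504.38, so they were used as deposited. The file headers note 17 and 12.5 µg of cRNA, with question marks, and fluidics modules 2 and 1 for the sham and portal hypertensive arrays, which cannot be told apart from the operation. These run settings (other) were read per the file headers.

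Of 8799 probe sets, 59 controls were left out. Symbols came from the platform annotation, and all 56 member genes matched RefSeq (GRCr8) by gene identifier, with 0 symbols changed. Probe sets with several symbols named no gene, among them 2 with a phosphatase symbol. Values under the floor were raised to it, and then log2 was taken. A bound is the higher value over the floor. No build is named for the array, so the only coordinates given are those of the RefSeq promoter windows, on GRCr8.

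With 1 array per group, calls are folds of 1.5 or more and no test was made. Genes were named by rule: those past 1.5-fold, with several probe sets above the floor, above it in 1 pool only, or among the 3 of highest intensity in their class. The other members described were named after their values were seen. So were the single genes picked from the partner and marker lists. Members and lists were chosen with earlier results of these data known. Ratios and calls were tested on simulated data, with differences planted only in genes that have a probe set of high intensity. The simulated scatter was the same at all levels. This check therefore does not cover calls near the floor, such as Ptprj. Python 3.11.15, pandas 2.3.3 and statsmodels 0.14.6 were used.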

Additional observations from a re-analysis of the deposited data

How the results depend on the processing

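No paired analysis was possible because each group has 1 array. The median log2 ratio of the members, -0.06 as reported, ranged from -0.12 to -0.03 over the 9 alternatives. The count of genes at least 1.5-fold higher, 0 as reported, was 1 with quantile normalization, with the loess trend removed, when the floor was at the 20th or 60th percentile, when a gene's highest-level probe set stood for it, with only plain probe sets and with the left-out genes put back. That gene was Ptpn11 under both scalings, Ptpre with the 20th percentile, Ptpn6 with the left-out genes, and Ptprs otherwise. Under these settings the share of all genes at least 1.5-fold higher ran from 1.94% (60th percentile) to 7.15% (20th percentile). The count at least 1.5-fold lower, 2 of 43 as reported, was 5 of 49 when the floor was at the 20th percentile (Ppp2r2a, Ptpn21, Ptprg, Ptprj and Ptpru). The share of all genes at least 1.5-fold lower also rose at that floor, from 5.04% to 7.97%. The members' count was 1 with a 2-fold threshold, both scalings, the 60th percentile as floor, the highest-level probe set, and only probe sets above the floor in both pools. Genes above 0, 18 of 43 (41.9%) as reported, were 9 of 29 (31.0%) at the 60th percentile and 11 of 34 (32.4%) with only plain probe sets. The shares over all genes were 46.8%, 47.8% and 48.5% in the same order, so the members lay further below them in the last 2 settings. Neither difference was tested. Fewer genes had a value in these 2 settings, and some turned sign, such as Ppm1a (-0.13) and Ptpro (-0.02) in both cases. Of 30 named genes, 25 kept their sign under every alternative that gave a value, and Ppm1a, Ppm1b, Ppp1r1a, Ptpro and Ptprs did not. Those 5 were among the 11 members with 2 or more probe sets above the floor in both pools. In a gene with 1 probe set above the floor, choosing among probe sets could not turn the sign, so its agreement says little. Ppp2r2a ranged from -0.79 to -0.50. Ptprj ranged from -1.65 to -1.05, but had no value at the 60th percentile or over probe sets above the floor in both pools. All its values are bounds set by the floor except -1.65, which came with the floor at the 20th percentile. Signals near the floor and bounds set by it limit the precision, as do the single array per group and the disagreement between probe sets.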

Other observations

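Phosphatases outside the naming rule were mostly close to equal in the pools. Of 8 such genes with a value, 1 was at least 1.5-fold lower and 0 were higher, against 5.04% and 3.13% of all genes. Ratios were below 0 for 6 of them, against 53.2% of all genes. The 8 genes had a median log2 ratio of -0.09. Pdp2 and Pdp1 encode the phosphatases that switch the mitochondrial pyruvate dehydrogenase complex on. Pdp2 read 615.4 after sham surgery and 361.1 after ligation on the probe set above the floor, giving a log2 ratio of -0.77. Pdp1 read 2813 and 2666 after sham surgery and 2344 and 1912 after ligation, so both of its probe sets were lower, with log2 ratios of -0.26 and -0.48. Ilkap, a PPM-type phosphatase that binds integrin-linked kinase, was higher on both probe sets, with log2 ratios of 0.21 and 0.36. Cdc25b, which activates cyclin-dependent kinases, had -0.29 on the probe set above the floor, and the prenylated tyrosine phosphatase genes Ptp4a1 and Ptp4a2 had -0.06 and -0.13.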
